A study of Rattus norvegicus with 8 samples.

Results

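The 10 genes described here encode ion channels that open, or have been reported to open, when a cell membrane is stretched or a cell swells: *Piezo1*, *Piezo2*, *Trpv4*, *Trpv2*, *Trpc1*, *Trpm7*, *Kcnk2*, *Pkd2*, *Tmem63a*, and *Tmem63b*. They were chosen by name, and all 10 were found once each among the 32883 genes of the count table. They were read in the right Achilles tendons of 8 wild-type male Sprague-Dawley (SD) rats, 8 to 10 weeks old by the study's methods. In 4 rats (12 hours p.r., post-running) the tendon was taken 12 hours after a single 1-hour treadmill run (10° incline, 20 m/min), prompted by airflow and, for rats that left the belt, a mild electric stimulus. The other 4 rats (naïve control, NC) kept their normal cage activity, did not run, and were killed at the same time. The study calls them rats at rest, and the term is used here in that sense. The comparison asks whether the messenger RNA of these channels in tendon differed from rest 12 hours after the run.

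Mechanosensitive channels turn membrane tension into a flow of ions. PIEZO channels open directly under tension and let calcium and other cations in, TRP channels carry cations after stretch, swelling, heat, or chemical signals, and TREK-type potassium channels pass potassium out of the cell when stretched. In tendon, the cells between the collagen fibers are pulled with each step, and calcium entry through such channels is an early event by which tenocytes sense load. The channels differ in where they are best known: PIEZO1 in blood vessels, red cells, and tendon cells, PIEZO2 in sensory nerve endings, TRPV4 in cartilage, and polycystin-2, the product of *Pkd2*, in cilia and the endoplasmic reticulum.

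None of the channels passed an adjusted p of 0.05 in the quasi-likelihood F test of edgeR, adjusted by the Benjamini-Hochberg method across the 13937 genes tested, nor by DESeq2 or limma on log2(FPKM + 1). Of all genes tested, 1 did so with edgeR (0.00718%) and 0 of 17691 with limma. With DESeq2, 96 did so among 20945 genes with a p value. The DESeq2 adjustment was that tool's own and can leave out genes with few reads, so 20945 need not be the number adjusted over. All 10 channels had enough reads to be tested. At an unadjusted p value under 0.05, 1 of the 10 channels, *Piezo1*, differed by edgeR, and 1 differed by each of the other 2 tools. Of all genes, 9.51% did so with edgeR, 1361 of 20945 with DESeq2, and 1376 of 17691 with limma. *Piezo1* was on the higher side at 12 hours p.r., as 5.44% of all genes were at this p value, while 4.08% were on the lower side. Log2 fold changes were above 0 for 5 channels and below 0 for 5, and their median was 0.02, the same to 2 decimals as the median of 0.02 over all genes tested. *Piezo1* was also the only channel in which the rats of both groups did not overlap, with the running rats higher, a pattern found in 3.52% of all genes, against 2.55% with the running rats lower.

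**Figure D1:**
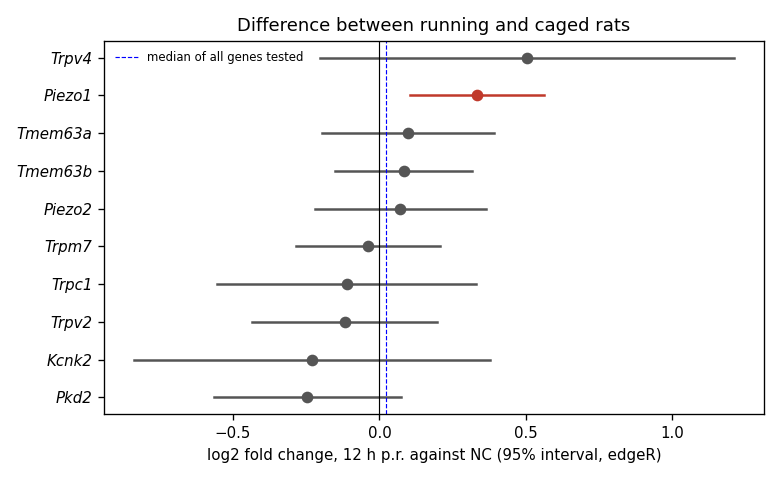
Log2 fold change of each channel gene at 12 h p.r. against NC (horizontal axis) with its 95% interval from edgeR. The interval of *Piezo1* (red) ran from 0.10 to 0.56, those of the other 9 genes crossed 0, and the dashed line marks the median of all genes tested at 0.02.

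Some facts of the libraries bear on these values. Total counts ran from 7350509 to 12951397 reads per rat, and the channels had between 35 reads (*Trpc1*) and 1813 reads (*Piezo1*) in single rats. As a check of the tissue, all 8 tenocyte markers looked up had enough reads to be tested. Their mean log2 CPM (reads of a gene scaled to a common library size) overlapped between the groups. It was 8.61 to 9.86 at 12 hours p.r. and 8.87 to 9.52 in the NC group (exact permutation p = 0.429). Of the 8 markers, 5 had log2 fold changes above 0, among them *Mkx* (0.78), *Scx* (0.62), and *Thbs4* (0.56). The others were below 0. *Scx* was at 45.22 to 60.65 CPM in the running rats and 20.31 to 43.88 CPM in the NC rats, without overlap. All 8 markers are part of the tenocyte mean used below as a covariate, so a group difference in them enters that covariate. The tendon also held RNA of other cells in unequal amounts: 12 hours p.r. replicate 3 had a skeletal muscle marker mean of 11.2, where the other rats had 6.26 to 9.70, and the lowest tenocyte mean, while NC replicate 3 and 12 hours p.r. replicate 1 had cartilage and bone marker means of 7.40 and 6.47, where the others had 2.63 to 4.22. Because the tendon was sequenced whole, fewer cells of a type and less RNA per cell cannot be told apart.

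Per length of gene, the channels fell into an upper and a lower tier. The deposited FPKM (reads scaled for gene length and library size) allows levels of different genes to be set side by side. *Pkd2* was highest with a mean of 24.5 ± 3.66 FPKM (SD, n = 8 rats), followed by *Piezo1* with 18.6 ± 2.67, *Trpm7* with 13.0 ± 1.29, *Tmem63b* with 10.1 ± 0.885, and *Tmem63a* with 9.49 ± 1.21. The lower tier held *Trpv2* with 4.02 ± 0.458 FPKM, *Trpv4* with 3.40 ± 1.40, *Kcnk2* with 2.42 ± 0.674, *Piezo2* with 2.26 ± 0.250, and *Trpc1* with 1.39 ± 0.213. Among all genes tested, *Pkd2* stood at percentile 77.4 of mean FPKM, *Piezo1* at 71.1, and *Trpc1* at 11.5. The step between the tiers was the widest between neighbors in this order: in all 8 rats *Tmem63a* was above *Trpv2*, by 1.24 ± 0.23 on the log2 scale (SD, n = 8).

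Neighbors in the order were compared within each rat by a 2-sided exact paired permutation test, adjusted over the 9 neighboring pairs. The order came from the same 8 rats. The test measures how consistent a difference was between rats, and it cannot see a measurement bias of a gene that all rats share. Of the 9 pairs, 4 differed, each with the higher gene ahead in all 8 rats (exact p = 0.00781, the smallest that 8 rats allow, adjusted exact p = 0.0176): *Piezo1* above *Trpm7*, *Trpm7* above *Tmem63b*, *Tmem63a* above *Trpv2*, and *Piezo2* above *Trpc1*. *Pkd2* was above *Piezo1* in 7 of 8 rats (exact adjusted p = 0.0703). The other neighbors did not differ beyond their spread: *Tmem63b* and *Tmem63a* (mean log2 difference 0.09), *Trpv2* and *Trpv4* (0.32), *Trpv4* and *Kcnk2* (0.46), and *Kcnk2* and *Piezo2* (0.05).

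**Figure D2:**
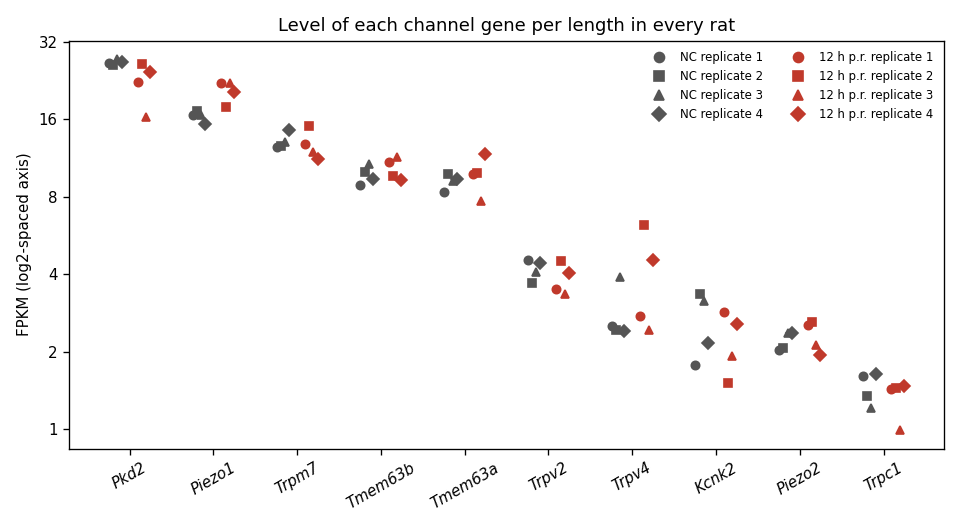
FPKM (vertical axis, log2-spaced) of each channel gene in every rat, ordered by their mean. Gray is NC and red 12 h p.r., the shape gives the replicate, and *Tmem63a* lay between 7.68 and 11.8 FPKM, above every value of *Trpv2* (3.35 to 4.55) in the next position.

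The promoters of the channel with the largest fold change, *Trpv4*, and of the most abundant, *Pkd2*, are shown as reference sequence. They are from RefSeq on assembly GRCr8 and run from 250 bases before to 50 bases after the annotated start, *Trpv4* at chr12:47598938-47599237 on the + strand and *Pkd2* at chr14:5585091-5585390 on the − strand. Capitals mark the GC box motif, GGGCGG, on either strand (CCGCCC where it lies on the other strand).
Trpv4: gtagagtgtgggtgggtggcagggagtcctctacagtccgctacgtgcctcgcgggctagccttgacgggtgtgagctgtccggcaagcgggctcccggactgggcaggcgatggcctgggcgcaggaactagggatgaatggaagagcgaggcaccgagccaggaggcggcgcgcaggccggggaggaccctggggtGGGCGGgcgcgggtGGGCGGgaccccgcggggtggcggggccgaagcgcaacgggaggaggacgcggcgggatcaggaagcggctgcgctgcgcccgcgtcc
Pkd2: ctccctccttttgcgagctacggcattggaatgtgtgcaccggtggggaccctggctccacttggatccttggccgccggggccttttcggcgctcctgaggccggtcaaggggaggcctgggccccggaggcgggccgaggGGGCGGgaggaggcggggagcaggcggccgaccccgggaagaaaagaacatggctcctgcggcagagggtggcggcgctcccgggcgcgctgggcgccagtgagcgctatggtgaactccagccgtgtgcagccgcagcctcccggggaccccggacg
The 7 channel genes with an entry in the RefSeq table had 8 such windows, *Kcnk2* having 2. GC content was 73.7% for *Trpv4*, 72.3% for *Pkd2*, 68.0% for *Trpm7*, 67.7% for *Piezo2*, 63.7% for *Tmem63a*, 58.7% for *Trpv2*, and 44.3 and 41.7% for *Kcnk2*, where the median of 33469 promoter windows was 51.7%. The GC box was found 2 times for *Trpv4* and for *Tmem63a*, once for *Pkd2*, *Trpm7*, and *Piezo2*, and 0 times for *Trpv2* and *Kcnk2*, and 33.1% of all windows hold it. The E-box CACGTG, which reads the same on both strands, was found 2 times for *Trpm7* and in no other of these windows, with 6.42% of all windows holding it. TATAAA was in none of the 8, with 14.2% of all windows holding it on either strand.

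The 10 genes summed to between 80.5 and 95.1 FPKM in the running rats and between 85.5 and 91.9 FPKM in the NC rats. *Pkd2* took 29.3 to 31.0% of this sum in the NC rats and 20.4 to 27.7% in the running rats, and *Piezo1* took 17.4 to 19.6% and 18.7 to 27.6%. The shares of *Pkd2* did not overlap between the groups, and those of *Piezo1* did. Shares of 1 sum depend on each other, and they were not tested. In CPM the *Pkd2* values of the groups overlapped (edgeR adjusted p = 0.622).

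*Piezo1* (ENSRNOG00000056786), a large channel whose subunits join as a trimer around a central pore, was the channel with the most reads, between 1117 and 1813 per rat. Its expression was 185, 147, 183, and 169 CPM in the running rats 1 to 4 and 137, 142, 137, and 126 CPM in the NC rats 1 to 4. Every running rat was above every NC rat, but the lowest running rat, replicate 2, was near the highest NC rat, also numbered 2. The running rats averaged 171 ± 17.4 CPM and the NC rats 136 ± 6.66 CPM (SD, n = 4 each). The difference was 1.26-fold, or 0.33 on the log2 scale with a standard error of 0.10 and a 95% interval of 0.10 to 0.56. The unadjusted edgeR p value was 0.00946 and the adjusted p = 0.433. A 2-sided exact permutation test of log2(CPM + 0.5) gave p = 0.0286, which is the lowest value this group size can reach.

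Since *Piezo1* is also a gene of blood vessels, endothelial markers were set beside it. The mean log2 CPM of the 7 endothelial markers found was 7.31 to 7.58 in the running rats and 7.36 to 7.45 in the NC rats (exact permutation p = 0.143), and in running replicate 2, lowest of the running rats in *Piezo1*, it was the lowest of all, at 7.31. The 3 other running rats had endothelial means of 7.53 to 7.58, above all NC rats. The single markers differed in direction. Of the 7, 5 had log2 fold changes above 0: *Egfl7* (0.40, edgeR unadjusted p = 0.00206), *Cldn5* (0.37), *Cdh5* (0.29), *Kdr* (0.09), and *Vwf* (0.03). *Emcn* (−0.40, edgeR unadjusted p = 0.0321) and *Tek* (−0.12) were below 0. An unadjusted p value under 0.05 was thus found for 2 of the 7, beside 9.51% of all genes. With the endothelial marker mean as a covariate, chosen after seeing the data, the log2 fold change of *Piezo1* was 0.24 (unadjusted p = 0.0640, edgeR). With the tenocyte marker mean as a covariate, also chosen after seeing the data, it was 0.35 (unadjusted p = 0.0110, edgeR). The pericyte and smooth muscle marker means also overlapped between the groups, at 7.39 to 7.91 and 7.10 to 7.52. The part of vessel cells in the *Piezo1* values was not tested.

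*Piezo2* (ENSRNOG00000038784), the channel of touch and of muscle and tendon sense in nerve endings, was at 21.1, 21.5, 17.5, and 15.96 CPM in the running rats and 16.6, 16.9, 19.4, and 19.3 CPM in the NC rats. The groups overlapped, with both the highest and the lowest rat in the running group. The log2 fold change was 0.07 (standard error 0.13, 95% interval −0.22 to 0.36, edgeR adjusted p = 0.890). Per length, *Piezo1* was 9.12 ± 1.74 times as abundant as *Piezo2* in the running rats (SD, n = 4) and 7.54 ± 0.907 times in the NC rats (SD, n = 4), a difference that an exact permutation test did not separate from the spread (p = 0.143). Schwann cell markers, which accompany nerve, had means of 4.94 to 5.16 and 4.85 to 5.50 in the same rats, and nerve endings themselves leave their cell bodies, and most of their messenger RNA, outside the tendon.

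**Figure D3:**
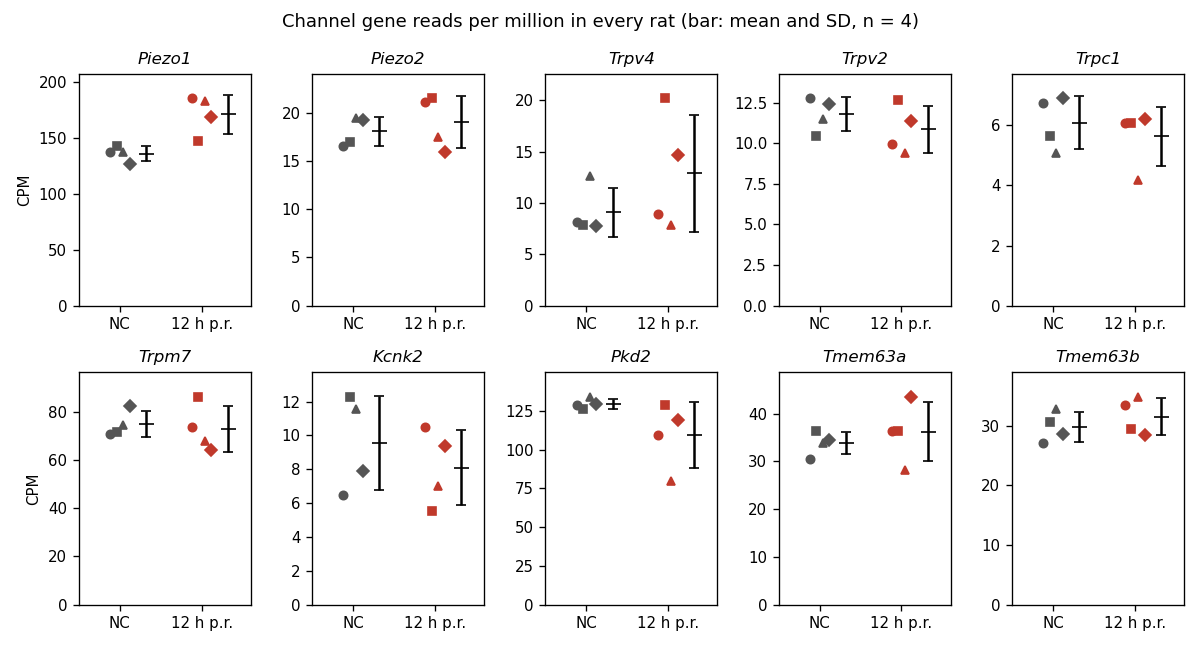
CPM (vertical axes, from 0) of each of the 10 channel genes in the 4 NC rats (gray) and the 4 rats at 12 h p.r. (red), with circles, squares, triangles, and diamonds for replicates 1 to 4, and black bars for mean and SD (n = 4). *Piezo1* is the only panel without overlap between the groups, *Trpv4* spreads from 7.85 to 20.2 CPM in the running rats, and *Pkd2* is tight in the NC rats, at 126 to 134 CPM.

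*Trpv4* (ENSRNOG00000001195), a calcium-permeable channel opened by cell swelling and stretch, had the largest fold change of the 10 and the widest spread between rats. It was at 8.93, 20.2, 7.85, and 14.7 CPM in the running rats and 8.10, 7.85, 12.6, and 7.73 CPM in the NC rats. Running replicates 2 and 4 were above all NC rats, while running replicates 1 and 3 lay among them. The 95% interval of the log2 fold change ran from −0.20 to 1.21 around 0.50 (edgeR unadjusted p = 0.142). The spread of log2 CPM within the groups was 0.50, at percentile 83.5 of all genes tested, while that of *Piezo1* was 0.12, at percentile 11.7.

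Cartilage is rich in TRPV4, so the cartilage and bone markers were set beside this gene. NC replicate 3, highest of the NC rats in *Trpv4*, had the highest marker mean of all 8 rats (7.40). The running rat highest in *Trpv4*, replicate 2, had a marker mean of 3.58, and running replicate 1, with a marker mean of 6.47, had 8.93 CPM of *Trpv4*. *Col2a1*, the main collagen gene of cartilage, was at 594 CPM in NC replicate 3, 167 CPM in running replicate 1, and 8.04 CPM in running replicate 2. *Acan*, another of these markers, was at 87.36, 78.25, 9.996, and 114 CPM in the running rats 1 to 4. In the NC rats 1 to 4 *Acan* was at 38.24, 59.85, 128.3, and 34.33 CPM. With the cartilage and bone marker mean as a covariate the log2 fold change of *Trpv4* was 0.59 (edgeR unadjusted p = 0.124). Without both running replicate 1 and NC replicate 3 it was 0.84 (edgeR unadjusted p = 0.0352, adjusted p = 0.634), and without running replicate 2 it was 0.21 (edgeR unadjusted p = 0.469). The endothelial covariate, chosen after seeing the data, gave 0.85 (edgeR unadjusted p = 0.00940, adjusted p = 0.670), and the tenocyte covariate, chosen in the same way, gave 0.25 (edgeR unadjusted p = 0.353).

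*Trpv2* (ENSRNOG00000003104), a relative of *Trpv4* that is well expressed in macrophages, was at 9.97, 12.7, 9.40, and 11.4 CPM after running and 12.8, 10.4, 11.5, and 12.4 CPM in the NC rats. Running replicates 1 and 3 were below every NC rat and NC replicate 1 was above every running rat, while the others overlapped. The log2 fold change was −0.12 (95% interval −0.43 to 0.20, edgeR adjusted p = 0.816). The rat lowest in *Trpv2*, running replicate 3, was also lowest in the leukocyte and macrophage marker mean (4.22), and the NC rat lowest in *Trpv2*, replicate 2, had the lowest NC mean (4.41), where the other 6 rats had 5.02 to 5.71. Running replicate 1, also below every NC rat in *Trpv2*, had a marker mean of 5.09. The part of these cells in the *Trpv2* values was not tested. Per length, the ratio of *Trpv4* to *Trpv2* was 1.01 ± 0.310 in the running rats and 0.678 ± 0.193 in the NC rats (SD, n = 4 each, exact permutation p = 0.114).

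*Trpc1* (ENSRNOG00000054902), a subunit of cation channels that often pairs with other TRPC proteins, had the fewest reads of the 10, from 35 to 84 per rat. Its log2 fold change was −0.11 with a 95% interval of −0.55 to 0.33. Running replicate 3 was lowest of all rats at 4.17 CPM, and the other running rats lay within 6.06 to 6.20 CPM, inside the NC range of 5.06 to 6.88 CPM.

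*Trpm7* (ENSRNOG00000057806), a channel for magnesium and calcium joined to a protein kinase, was at 73.8, 86.0, 67.8, and 63.9 CPM after running and 70.8, 71.7, 74.3, and 82.6 CPM at rest. The running rats held both the highest and the lowest value. The log2 fold change of −0.04 had a 95% interval of −0.29 to 0.21.

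*Pkd2* (ENSRNOG00000002146), polycystin-2, the channel partner of the large receptor-like protein polycystin-1, was at 109, 129, 79.9, and 119 CPM in the running rats and 129, 126, 134, and 129.6 CPM in the NC rats. Running replicates 1, 3, and 4 were below every NC rat, and running replicate 2 lay among them. The log2 fold change was −0.25 (standard error 0.14, 95% interval −0.56 to 0.07, edgeR adjusted p = 0.622), and an exact permutation test gave p = 0.0857. The SD was 3.09 CPM in the NC rats and 21.2 CPM in the running rats. The lowest value belonged to running replicate 3, the rat with the most skeletal muscle and the least tenocyte marker RNA, and without it the log2 fold change was −0.12 (edgeR unadjusted p = 0.218). Without running replicate 2, the running rat that lay among the NC rats, it was −0.33 (edgeR unadjusted p = 0.0456). With the muscle markers as a covariate it was −0.29 (edgeR unadjusted p = 0.0332, adjusted p = 0.373), with the tenocyte markers, chosen after seeing the data, −0.38 (edgeR unadjusted p = 0.00548, adjusted p = 0.358), and with the endothelial markers, chosen in the same way, −0.11 (edgeR unadjusted p = 0.447). *Pkd1*, the gene of polycystin-1, had a log2 fold change of −0.14 (edgeR unadjusted p = 0.358).

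The most abundant channels, *Piezo1* and *Pkd2*, were also set against each other. The ratio of *Piezo1* to *Pkd2* in FPKM was 0.999, 0.675, 1.35, and 0.837 in the running rats and 0.631, 0.665, 0.605, and 0.577 in the NC rats. Every running rat was above every NC rat, by a narrow margin for running replicate 2. The exact permutation test gave p = 0.0286, and p = 0.114 after Benjamini-Hochberg adjustment over the 4 ratios compared, all chosen after the values were seen.

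**Figure D4:**
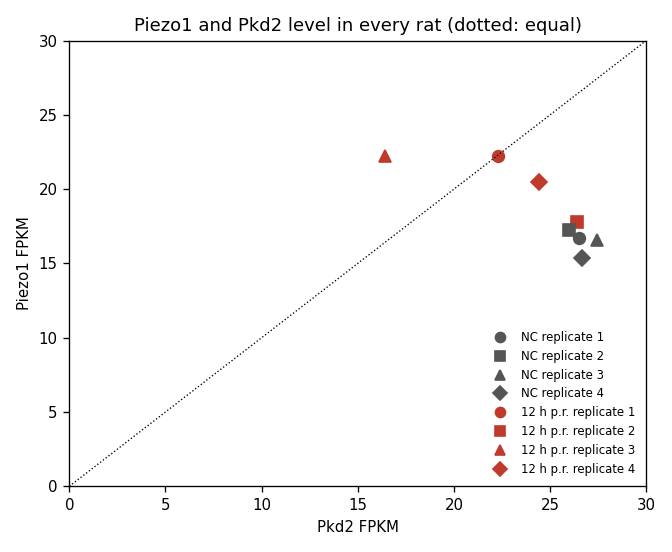
*Piezo1* FPKM (vertical axis) against *Pkd2* FPKM (horizontal axis) in each rat, gray for NC and red for 12 h p.r., with the shape giving the replicate and the dotted line equal levels. The NC rats cluster at 15.4 to 17.3 FPKM of *Piezo1*, running replicate 2 lies beside them at 17.8, and running replicate 3 lies above the line.

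*Kcnk2* (ENSRNOG00000002653) encodes TREK-1, a potassium channel opened by stretch, heat, and lipids. It was at 10.5, 5.53, 7.02, and 9.39 CPM in the running rats and 6.49, 12.3, 11.6, and 7.90 CPM in the NC rats. Each group held a pair of high rats and a pair of low rats, and the groups overlapped. The log2 fold change was −0.23 with the second widest 95% interval of the 10, from −0.84 to 0.38, and the spread within groups stood at percentile 77.7 of all genes. The related stretch-activated channels *Kcnk4* and *Kcnk10* had 5 and 6 reads over all 8 rats and were not tested.

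*Tmem63a* (ENSRNOG00000003310) and *Tmem63b* (ENSRNOG00000019743) belong to the OSCA/TMEM63 family, channels opened by osmotic or mechanical stress that are found from plants to mammals. *Tmem63a* was at 36.5, 36.5, 28.3, and 43.5 CPM after running and 30.6, 36.3, 34.0, and 34.5 CPM at rest, so the running group held the extremes. *Tmem63b* was at 33.5, 29.4, 34.8, and 28.5 CPM and 27.1, 30.5, 32.8, and 28.6 CPM. Their log2 fold changes were 0.10 (95% interval −0.19 to 0.39) and 0.08 (95% interval −0.15 to 0.32), and the exact permutation test of their FPKM ratio gave p = 1.

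The third gene of that family, *Tmem63c* (ENSRNOG00000011334), was among the related channels looked up. It was at 9.06, 4.48, 5.36, and 6.57 CPM in the running rats and 12.4, 9.93, 9.37, and 15.1 CPM in the NC rats, with every running rat below every NC rat, as in 2.55% of all genes tested. The log2 fold change was −0.88 (standard error 0.25, edgeR unadjusted p = 0.00623, adjusted p = 0.432), from 757 reads over the 8 rats. Whether this differed from the changes of *Tmem63a* and *Tmem63b* was not tested.

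The other channel genes looked up were relatives of the 10 from the TRP, TMEM63, K2P potassium, TMC, epithelial sodium, and acid-sensing families and a few further channels linked to stretch or swelling, 41 symbols in all, of which 40 were found in the table and 21 had enough reads. Of these 21, 0 were higher and 1 was lower at an unadjusted p value under 0.05, *Tmem63c*, where 5.44% of all genes were higher and 4.08% lower. Their median log2 fold change was −0.01, beside 0.02 for all genes. The highest per length were *Tmem120a*, first described as a mechanosensitive channel, at 37.7 FPKM, *Mcoln1*, a lysosomal cation channel, at 11.2 FPKM, and *Lrrc8a*, the core of the volume-regulated anion channel, at 8.16 FPKM, with log2 fold changes of 0.13, 0.10, and 0.00. *Trpv5*, *Trpa1*, and *Tmc2* had 0 reads in all 8 rats, which allows up to 3 reads for each.

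Among 9 genes whose proteins bind or adjust these channels, 8 were tested and 0 had an unadjusted p value under 0.05 by edgeR. *Cav1*, the caveolin of membrane pits, was at 566 FPKM with a log2 fold change of −0.24 (edgeR unadjusted p = 0.122). *Pacsin3*, which binds TRPV4, was at 128 CPM in running replicate 3 and 28.6 to 53.8 CPM in the other 7 rats, where that rat also had the highest muscle markers. *Orai1*, the pore of store-operated calcium entry, was at 44.9 CPM in the same rat and 19.1 to 24.0 CPM in the others. *Mdfic*, an auxiliary subunit of PIEZO channels, had a log2 fold change of 0.14 (edgeR unadjusted p = 0.348). Their median was 0.09.

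Of the 15 genes of calcium stores, entry, and pumps, all were tested, and 2 were lower and 0 higher at an unadjusted p value under 0.05, beside 4.08% and 5.44% of all genes. *Stim2*, a calcium sensor of the endoplasmic reticulum, was at 44.4 ± 2.12 CPM after running and 49.8 ± 1.21 CPM at rest (SD, n = 4 each, edgeR unadjusted p = 0.0450, adjusted p = 0.511), without overlap, as 2.55% of all genes were on the lower side. *Atp2a2*, the SERCA2 calcium pump, was at 275 ± 86.0 CPM after running and 431 ± 107 CPM at rest (SD, n = 4 each), −0.65 on the log2 scale (edgeR unadjusted p = 0.0276, adjusted p = 0.478), and it overlapped in running replicate 2, at 403 CPM. *Atp2a3*, another SERCA pump, was at 34.5 FPKM with a log2 fold change of 0.09. SERCA2 is also a pump of slow muscle and heart. *Myh7*, the myosin of slow muscle, was at 1.55, 529, 51.2, and 73.5 CPM in the running rats and 238, 757, 497, and 745 CPM in the NC rats, and its log2 fold change was −1.77 (edgeR unadjusted p = 0.160). Of the 8 skeletal muscle markers tested, 6 had log2 fold changes above 0, and *Myh7* and *Mb* (−1.32) were below 0. *Myh7* was highest among the running rats in replicate 2, as *Atp2a2* was, while the mean of all muscle markers was highest in running replicate 3, where *Atp2a2* was lowest at 221 CPM. The part of muscle in the *Atp2a2* values was not tested.

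Of 24 calcium decoder symbols, which cover calcium-dependent kinases, calcineurin, NFAT factors, and calpains among others, 21 were tested, 2 with an unadjusted p value under 0.05 on the higher side and 1 on the lower, beside 5.44% and 4.08% of all genes. *Camk1*, a calcium-dependent kinase, was at 56.1 to 70.7 CPM after running and 48.6 to 55.1 CPM at rest (edgeR unadjusted p = 0.0420). *Capn1*, the large subunit of a calcium-activated protease, was at 51.0 to 66.9 CPM and 45.6 to 50.9 CPM (edgeR unadjusted p = 0.0262), and in both genes the groups did not overlap, as in 3.52% of all genes on the higher side. *Rcan2*, a calcineurin regulator, was at 46.7 ± 10.1 CPM and 64.3 ± 11.2 CPM (SD, n = 4 each, edgeR unadjusted p = 0.0292). Of the abundant decoders, *Capn2*, the large subunit of another calpain, had a log2 fold change of −0.08, and *Ppp3r1*, the regulatory subunit of calcineurin, had one of 0.01. Over the 4 lists together 63 genes were tested, 6 had an unadjusted p value under 0.05 (2 higher and 4 lower), a share near the 9.51% of all genes, and 0 had an adjusted p value under 0.05.

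**Figure D5:**
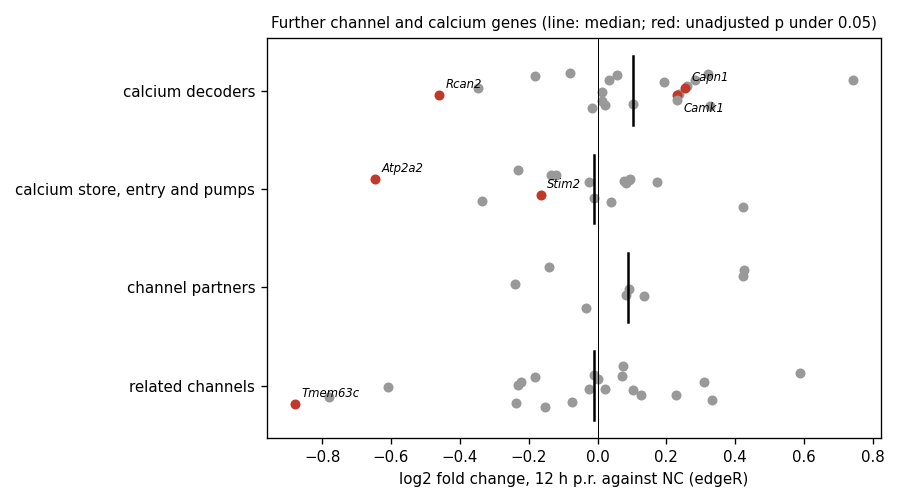
Log2 fold change at 12 h p.r. against NC (horizontal axis) of every tested gene of the 4 further lists, 1 point per gene, with vertical lines for the median of each list. The 6 red points have an unadjusted p value under 0.05, of which *Tmem63c* lies lowest at −0.88, and *Stim1* and *Orai1* stand in 2 lists.

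Genes whose pattern over the 8 rats was most like that of *Piezo1*, by the root mean square difference of centered log2 CPM, were *Szrd1* (0.06), *Ap2a1* (0.06), and *Dnpep* (0.06), where the median gene tested was at 0.30. For *Piezo2* they were *Setd1a*, *Cers4*, and *Gbf1* (0.05 to 0.06). For *Trpv4* they were *Dpm3* (0.16), *C5ar2* (0.18), and an unnamed gene (0.19), with a median gene at 0.54. These differences grow with the spread of the channel itself, whose SD over the 8 rats was 0.52 for *Trpv4* and 0.21 for *Piezo1*. The distances of *Trpv4* and *Piezo1* can therefore not be set side by side as they stand.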

How the data were processed

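Reads of stranded polyadenylate mRNA libraries, 1 per rat, were aligned by the authors to rat Rnor_6.0 with Hisat2 2.1.0, with its setting for stranded libraries. The authors deposited whole-number counts for each Ensembl gene, made with featureCounts 1.6.3. Whether counting used the strand, and how reads matching several genes were treated, is not given in the sources used here. The deposited FPKM, made by the authors, equal counts divided by gene length and DESeq2 size factors, up to 1 constant (largest relative deviation 4.5e-06 over 6292 genes). A table of the authors' own comparison, with fold changes and p-values, was not used.

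Groups and replicate numbers came from the labels. Counts were filtered with filterByExpr, scaled by TMM, and tested with the quasi-likelihood test of edgeR 4.0.16, with Benjamini-Hochberg adjustment over all 13937 genes. Standard errors came from the F statistic. DESeq2 1.42.0 and limma 3.58.1 were alternatives, in R 4.3.3. Only the main edgeR fit, DESeq2, and limma with 1 added (there to CPM, not FPKM) were tested on simulated counts. Exact tests were 2-sided. Marker means, replicate blocks, other filters and normalizations, and leaving out rats were alternatives. The members, lists, and tests were chosen with earlier results of these data known. Beside the 10 channels, named genes are the 3 most abundant of each list, those with an unadjusted p value under 0.05 or without overlap, and the 3 nearest patterns of *Piezo1*, *Piezo2*, and *Trpv4*. A gene that this rule names is not reported here. *Pkd1*, *Mdfic*, *Kcnk4*, *Kcnk10*, *Trpv5*, *Trpa1*, *Tmc2*, *Col2a1*, *Acan*, *Myh7*, *Mb*, *Emcn*, and *Tek* were added after their values were seen. So were the markers *Egfl7*, *Cldn5*, *Cdh5*, *Kdr*, *Vwf*, *Scx*, *Mkx*, and *Thbs4*. Symbols absent from the table or present more than once were left out. Each sample is 1 rat.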

Additional observations from a re-analysis of the deposited data

Results flagged for a closer look

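In each group of 4 rats, each channel was searched for 1 rat far from the other 3 by Dixon's criterion at the 0.05 level on log2(CPM + 0.5). Of 20 groups, 2 held one, where chance gives about 1 (1 in 20). *Trpv4* was at 12.6 CPM in NC replicate 3, and at 7.73 to 8.10 CPM in the other NC rats. *Trpc1* was at 4.17 CPM in 12 h p.r. replicate 3, and at 6.06 to 6.20 CPM in the other running rats. The first rat had the highest cartilage and bone marker mean and the second the highest skeletal muscle marker mean, and the part of these tissues in either value was not tested.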

How the results depend on the processing

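The alternatives were the normalization, the filter, DESeq2, limma on FPKM, the replicate block, marker covariates, and leaving out rats, and the endothelial and tenocyte covariates were chosen after seeing the data. The number of channels with an adjusted p value under 0.05 was 0 in all of them. The number with an unadjusted p value under 0.05, 1 as reported, was 2 with the skeletal muscle and with the tenocyte covariate (*Piezo1* and *Pkd2*), and 1 to 2 with each rat left out, the second being *Pkd2* without 12 h p.r. replicate 2 and *Trpv4* without 12 h p.r. replicate 3 (0.68, edgeR unadjusted p = 0.0437). *Piezo1* kept its sign in all, at 0.24 to 0.40, and its unadjusted p value was above 0.05 without both 12 h p.r. replicate 1 and NC replicate 3 (0.0557) and with the endothelial covariate. In these 2 fits the 1 channel under 0.05 was *Trpv4* instead (edgeR unadjusted p = 0.0352 and 0.00940). Signs turned for *Tmem63a* with the tenocyte covariate (−0.0005) and without 12 h p.r. replicate 4 (−0.003), for *Trpm7* with the endothelial covariate (0.0443) and without 12 h p.r. replicate 4 (0.0195) or NC replicate 4 (0.0108), and for *Trpc1* without 12 h p.r. replicate 3 (0.0072). With rats left out these ran from −0.003 to 0.1999 for *Tmem63a*, −0.1293 to 0.0195 for *Trpm7*, and −0.2331 to 0.0072 for *Trpc1*. The cause was not tested.

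All genes with an unadjusted p value under 0.05 numbered 1326, and 879 (without NC replicate 4) to 1580 with each rat left out. The further channel and calcium genes numbered 6 at this p value, 3 with limma on log2(FPKM + 1), 3 without the pair of rats named above, and 2 to 8 with each rat left out, the lowest without 12 h p.r. replicate 4 or NC replicate 4. Neighbors in the FPKM order that differed numbered 4, 4 to 5 with each rat left out, and 0 in either group alone, where 4 rats cannot give an exact p below 0.125. With the replicate block, *Piezo1* had a log2 fold change of 0.33 (edgeR adjusted p = 0.702), and the block changed no call among the 10 channels, while the further genes fell from 6 to 4, all genes at an unadjusted p value under 0.05 from 1326 to 974, and all genes at an adjusted one from 1 to 0. No sign that equal replicate numbers pair the rats was seen. Correlations of deviations across genes were −0.19 to 0.12 for equal numbers and −0.29 to 0.31 for unequal ones, which cannot exclude a pairing. *Trpc1* had the fewest reads of the channels, 35 to 84 per rat.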
